A study of Mus musculus with 8 samples.

Results

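The guanylate-binding proteins (GBP) and the immunity-related GTPases (IRG) are large GTPases that interferon induces, and 10 of their genes were followed here in regulatory T (Treg) cells: Gbp2, Gbp3, Gbp4, Gbp7, Igtp, Irgm1, Irgm2, Ifi47, Iigp1 and Tgtp1. They were chosen by symbol among the 52459 genes listed, and all 10 passed the filter on low values that left 15419 genes to test, a mean normalized count of 10 or more. Treg cells were sorted as CD4+CD25hi cells from pooled spleen and lymph nodes of several female C57BL/6 mice per sample, whose age is not given in the sources used here. These mice carried floxed Stim1 and Stim2 genes (fl/fl for both) and were heterozygous for Foxp3-YFPcre. YFPcre+ cells make the Cre recombinase from the Foxp3 gene on the X chromosome and are labelled Stim1/2-deficient, whereas YFPcre- cells from the same kind of mouse are labelled WT and carry the floxed alleles too. STIM1 and STIM2 sense calcium in the endoplasmic reticulum and open the store-operated calcium channels of the plasma membrane. Cells of both kinds were either left unstimulated or stimulated for 16 h with 1 µg/ml plate-bound anti-CD3/CD28 antibodies, and each of these 4 groups has 2 libraries. The question was how the transcripts of these GTPases differ with Stim1/2 deficiency and with stimulation. P-values measure only the spread between these samples.

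Interferon gamma binds its receptor and activates the kinases JAK1 and JAK2, and its signal reaches promoters through a DNA element called GAS. Members of the IRF family such as IRF1 bind another element called ISRE. GBP and IRG proteins are best known from infected cells, where they gather on the vacuoles of bacteria and parasites and damage them. IRG proteins fall into effectors (Iigp1, Tgtp1 and Ifi47) that attack the vacuole, and regulators (Irgm1, Irgm2 and Igtp) that sit on the cell's own membranes and keep the effectors inactive there. Irgm1 has also been tied to autophagy and to the survival of T cells that proliferate under interferon gamma.

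The values, termed normalized counts, are the reads of a gene after division by a size factor of its library. Depth was 11851853 to 16306540 gene reads per library, and a single read was worth 0.759 to 1.48 normalized counts. The smallest value of any of the 10 genes rested on 18 reads, for Tgtp1, and the largest on 23482, for Gbp2. Stim1, the first targeted gene, had 1139 and 1377 normalized counts in the unstimulated WT libraries against 1538 and 1868 in those labelled Stim1/2-deficient, and after stimulation 645 and 673 against 552 and 642. Stim2 had 906 and 908 against 904 and 744, and after stimulation 665 and 782 against 620 and 696. Neither gene was called lower in either state (limma adjusted p from 0.236 to 0.827), so libraries are named by their label. A count over a whole gene does not show whether single exons were deleted. The paper reports loss of Stim1 and Stim2 expression by RT-PCR in Treg cells of male mice. It also reports that YFPcre+ Treg cells of heterozygous females lacked store-operated calcium entry. Unstimulated libraries were sequenced in one lane and stimulated libraries in another. Both genotypes lie within each lane, and stimulation and lane cannot be told apart. In bulk samples, fewer cells of a type and less RNA per cell cannot be told apart either.

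Each library held the transcripts of T and Treg cells, with sums over 9 markers of 94230 to 101397 normalized counts in the unstimulated WT cells, 47187 to 54583 in unstimulated Stim1/2-deficient cells, 100335 to 118948 in stimulated WT cells and 73909 to 92457 in stimulated Stim1/2-deficient cells. The summed level of 16 macrophage and monocyte markers was 494 and 498 in unstimulated WT libraries, but 12187 and 1937 in unstimulated Stim1/2-deficient replicates 1 and 2. It was 173 to 327 in stimulated WT and 375 to 469 in stimulated Stim1/2-deficient libraries. Of the 16 markers, 6 in stimulated WT and 3 in stimulated Stim1/2-deficient cells were listed at 0 in both libraries. Sums of 12 B cell markers ran from 353 to 388, 942 to 3883, 235 to 1127 and 368 to 1708 in the same order of groups.

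Promoter windows of RefSeq on GRCm38.p6 ran from 250 bases before to 50 bases after an annotated transcription start. They were searched for 8 of the 10 genes, assigned by symbol, with 9 windows in all because Gbp3 has 2 starts. Gbp4 and Iigp1 were not part of this search, so their promoters were not examined. The counts for the family below therefore rest on a selected set of windows. GAS was searched as TTCNNNGAA and ISRE as GAAANNGAAA, on both strands, the latter therefore also as TTTCNNTTTC, where N is any base. An ISRE match was found in 7 of the 9 windows against 3.44% of 32851 windows of all genes, a GAS match in 4 against 8.3%, and both in 4 against 0.454%. Neither motif was found in the window of Ifi47 or at the second start of Gbp3. A match is a description of letters and not a site shown to be bound. Positions are counted from the start, which is 0.

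The windows of Igtp (chr11:58199306-58199605, plus strand), Irgm2 (chr11:58214727-58215026, plus strand) and Tgtp1 (chr11:48992197-48992496, minus strand) are printed because each holds GAS and ISRE side by side, 2 bases apart. Capitals mark the matches, 5′ to 3′.
Igtp: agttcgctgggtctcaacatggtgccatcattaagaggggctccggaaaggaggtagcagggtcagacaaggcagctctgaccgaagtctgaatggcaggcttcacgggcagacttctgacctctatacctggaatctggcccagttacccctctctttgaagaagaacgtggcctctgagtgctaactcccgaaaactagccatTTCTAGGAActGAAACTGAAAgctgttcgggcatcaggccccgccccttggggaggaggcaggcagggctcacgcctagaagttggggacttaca
Irgm2: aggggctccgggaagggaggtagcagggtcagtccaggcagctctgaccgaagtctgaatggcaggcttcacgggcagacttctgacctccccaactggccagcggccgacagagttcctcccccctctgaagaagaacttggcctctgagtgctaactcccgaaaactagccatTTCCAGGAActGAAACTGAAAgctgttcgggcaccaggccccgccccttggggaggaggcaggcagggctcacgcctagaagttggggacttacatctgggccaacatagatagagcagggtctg
Tgtp1: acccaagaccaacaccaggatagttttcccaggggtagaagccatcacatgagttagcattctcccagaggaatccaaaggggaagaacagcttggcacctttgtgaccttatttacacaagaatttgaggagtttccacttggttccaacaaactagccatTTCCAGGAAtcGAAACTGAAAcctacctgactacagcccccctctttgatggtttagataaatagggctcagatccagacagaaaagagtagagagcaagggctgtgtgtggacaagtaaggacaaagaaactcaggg
GAS began at position -45 in Igtp, -75 in Irgm2 and -88 in Tgtp1, and ISRE at -34, -64 and -77, so that the start of ISRE followed that of GAS by 11 bases each time. This spacing was noticed in these sequences and then counted: 5 of the 32851 windows held it (0.0152%), and all 5 belonged to the family, to these 3 genes and to their relatives Tgtp2 and Gm12185. The genes are copies of each other, so the 5 windows are not independent.

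The windows of 3 GBP genes from the cluster on chromosome 3 are printed beside them, because Gbp2 and Gbp3 had the largest interactions of genotype and stimulation among the 10 genes (described further on): Gbp2 (chr3:142620413-142620712), Gbp3 at its first start (chr3:142559794-142560093) and Gbp7 (chr3:142530086-142530385), all on the plus strand.
Gbp2: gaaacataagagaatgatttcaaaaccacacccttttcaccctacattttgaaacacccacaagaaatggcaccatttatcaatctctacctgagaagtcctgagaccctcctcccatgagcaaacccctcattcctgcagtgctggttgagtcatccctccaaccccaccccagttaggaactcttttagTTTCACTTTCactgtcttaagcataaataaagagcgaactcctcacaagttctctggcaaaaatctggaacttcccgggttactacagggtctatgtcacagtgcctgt
Gbp3: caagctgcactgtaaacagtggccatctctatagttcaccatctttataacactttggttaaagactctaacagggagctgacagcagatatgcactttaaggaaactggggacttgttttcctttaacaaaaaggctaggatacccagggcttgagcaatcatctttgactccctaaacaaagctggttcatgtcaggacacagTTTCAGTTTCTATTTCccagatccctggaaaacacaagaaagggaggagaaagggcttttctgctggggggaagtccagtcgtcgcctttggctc
Gbp7: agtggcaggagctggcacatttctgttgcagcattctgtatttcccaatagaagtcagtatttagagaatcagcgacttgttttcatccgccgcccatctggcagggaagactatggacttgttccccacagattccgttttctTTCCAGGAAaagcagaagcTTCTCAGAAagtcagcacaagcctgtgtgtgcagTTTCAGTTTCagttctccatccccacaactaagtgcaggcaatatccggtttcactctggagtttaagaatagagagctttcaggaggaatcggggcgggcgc
Gbp2 had 1 ISRE match at -59 and no GAS match. Gbp3 had 2 overlapping ISRE matches at -45 and -39 and no GAS match, as did Irgm1 at -30 and -24. Gbp7 had 2 GAS matches at -106 and -87 and an ISRE match at -53.

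**Figure D1:**
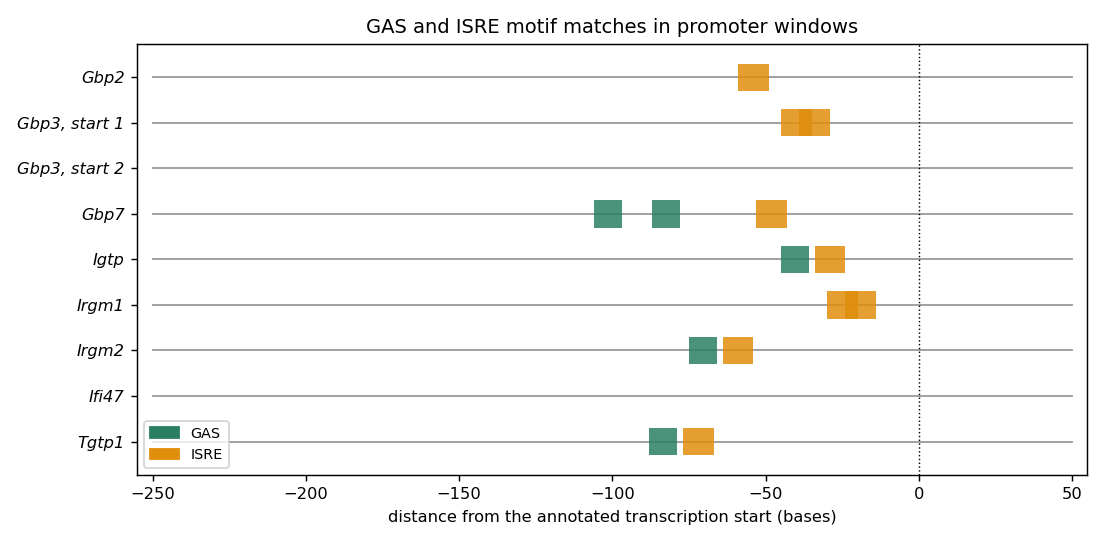
Matches to the GAS and ISRE motifs in 9 promoter windows of 8 genes, plotted by distance in bases from the annotated transcription start (dotted line). ISRE matches lie within -77 to -24 of the start in 7 windows, and in Igtp, Irgm2 and Tgtp1 a GAS match stands directly before them.

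Most of these transcripts rose with stimulation in both genotypes. In WT cells, 8 of the 10 genes rose, against 10.2% of all tested genes, and the median log2 fold change over the 10 was 2.03 against 0.01 over all genes. In Stim1/2-deficient cells, all 10 genes rose, against 13%, with a median log2 fold change of 2.35 against -0.03. Here and below, calls came from limma on log2(normalized count + 1) and needed a change beyond 1.5-fold with an adjusted p (Benjamini-Hochberg, over all tested genes) below 0.05. The summed level of the 10 genes was 14229 and 14454 normalized counts in the unstimulated WT libraries, 15243 and 15631 in unstimulated Stim1/2-deficient libraries, 40724 and 41907 in stimulated WT libraries, and 71730 and 93898 in stimulated Stim1/2-deficient libraries. These sums did not overlap between any of the 4 groups.

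**Figure D2:**
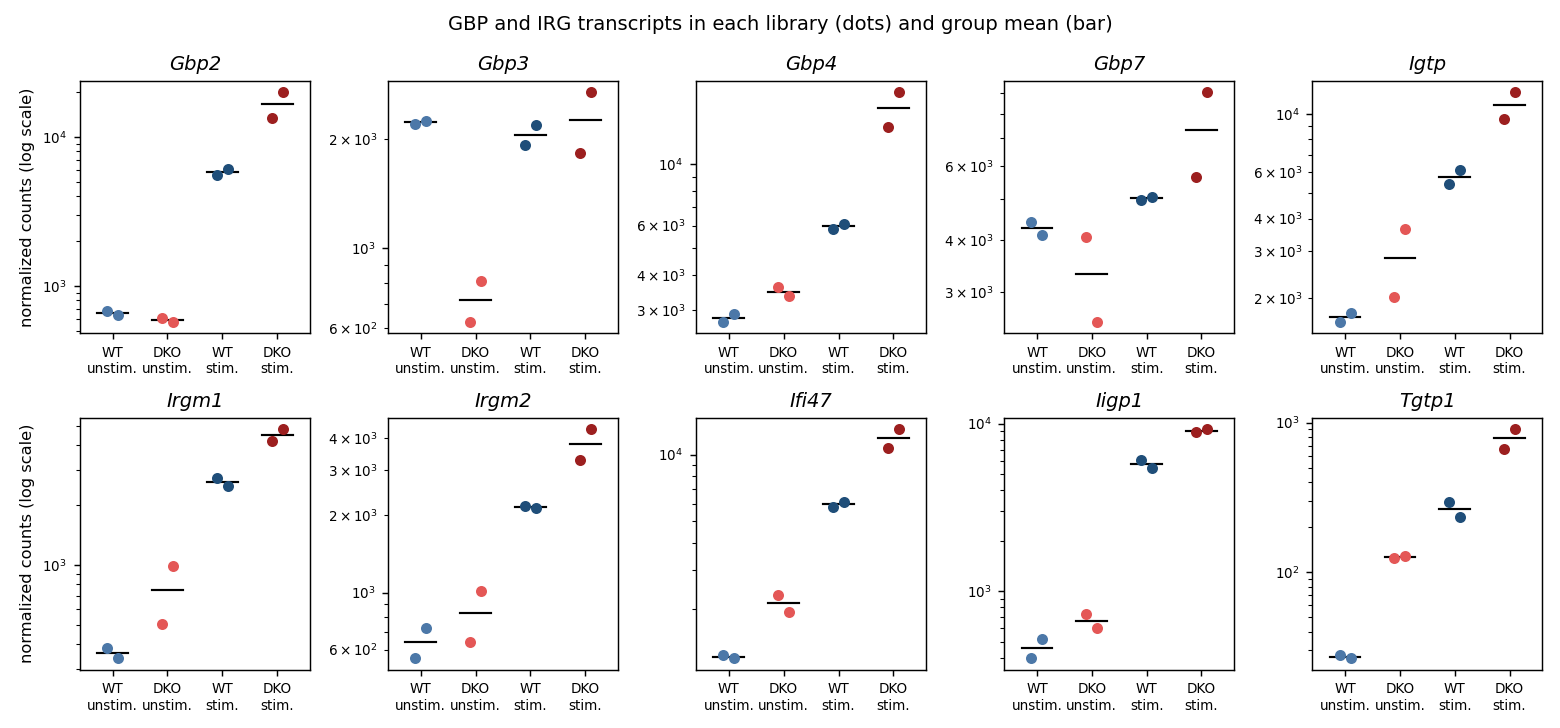
Normalized counts (log axis, scaled per gene) of the 10 GTPase genes in the 8 libraries, with dots for libraries and bars for the mean of 2. DKO stands for Stim1/2-deficient. In 9 of the 10 panels both stimulated Stim1/2-deficient libraries lie above both stimulated WT libraries, and Gbp3 shows an overlap.

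Gbp2 (chromosome 3, 142620663 to 142638008), a GBP with a lipid anchor that recruits it to membranes, changed most with stimulation in Stim1/2-deficient cells. It had 671 and 635 normalized counts in the unstimulated WT libraries, 608 and 574 in unstimulated Stim1/2-deficient libraries, 5504 and 6086 in stimulated WT libraries, and 13422 and 19825 in stimulated Stim1/2-deficient libraries. The unstimulated groups lay close together without overlapping, and the stimulated groups stood far above them and apart from each other. The rise with stimulation was 8.85-fold in WT cells (log2 fold change 3.15, standard error 0.21, adjusted p = 7.20e-05) and 27.6-fold in Stim1/2-deficient cells (4.78, standard error 0.21, adjusted p = 5.67e-06).

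Gbp3 (chromosome 3, 142560016 to 142573213) followed another course. Its values were 2201 and 2248 in unstimulated WT libraries, 626 and 809 in unstimulated Stim1/2-deficient libraries, 1931 and 2185 in stimulated WT libraries, and 1833 and 2689 in stimulated Stim1/2-deficient libraries. The unstimulated Stim1/2-deficient libraries alone were low, and the other 3 groups overlapped or nearly touched. With stimulation the log2 fold change was -0.12 in WT cells (standard error 0.22, adjusted p = 0.741), turning to 0.40 after rescaling to equal totals and to 0.23 after quantile normalization, whereas in Stim1/2-deficient cells it was 1.64 (adjusted p = 0.00118), a rise of 3.12-fold.

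Gbp7 (chromosome 3, 142530336 to 142550151), which has been linked to the delivery of autophagy and oxidase components to vacuoles in macrophages, rose least of the 10 genes in Stim1/2-deficient cells. It had 4409 and 4118 normalized counts in the unstimulated WT libraries, 4069 and 2555 in unstimulated Stim1/2-deficient libraries, 4992 and 5067 in stimulated WT libraries, and 5661 and 9005 in stimulated Stim1/2-deficient libraries. The groups did not overlap, but replicates of the Stim1/2-deficient groups lay far apart. It rose 2.21-fold in Stim1/2-deficient cells (log2 1.15, standard error 0.26, adjusted p = 0.0112) and had a log2 fold change of 0.24 in WT cells (adjusted p = 0.540). The call in Stim1/2-deficient cells was lost without stimulated replicate 2 of that genotype (adjusted p = 0.0743) and in a fit to the 4 libraries of that genotype alone (0.0634).

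Gbp4 (chromosome 5, 105115767 to 105139586) lies in the other GBP cluster. Its values were 2722 and 2903 in unstimulated WT libraries, 3613 and 3356 in unstimulated Stim1/2-deficient libraries, 5854 and 6080 in stimulated WT libraries, and 13563 and 17991 in stimulated Stim1/2-deficient libraries. The 4 groups were apart, in that order. It rose 2.12-fold in WT cells (log2 1.09, standard error 0.18, adjusted p = 0.00335) and 4.48-fold in Stim1/2-deficient cells (log2 2.16, adjusted p = 0.000186).

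Among the IRG regulators, Irgm1 (chromosome 11, 48865245 to 48871420) had 384 and 340 normalized counts in the unstimulated WT libraries, 508 and 988 in unstimulated Stim1/2-deficient libraries, 2722 and 2478 in stimulated WT libraries, and 4207 and 4805 in stimulated Stim1/2-deficient libraries. Its groups did not overlap, although the 2 unstimulated Stim1/2-deficient libraries lay far apart. Irgm2 (chromosome 11, 58214977 to 58222783) had 555 and 727 in unstimulated WT libraries, 645 and 1016 in unstimulated Stim1/2-deficient libraries, 2171 and 2139 in stimulated WT libraries, and 3280 and 4340 in stimulated Stim1/2-deficient libraries. Its unstimulated groups overlapped and its stimulated groups did not. Igtp (chromosome 11, 58199556 to 58207592), also called Irgm3, had 1624 and 1743 in unstimulated WT libraries, 2006 and 3662 in unstimulated Stim1/2-deficient libraries, 5410 and 6118 in stimulated WT libraries, and 9566 and 12042 in stimulated Stim1/2-deficient libraries. Its 4 groups were apart. With stimulation, Irgm1 rose 7.17-fold in WT and 6.34-fold in Stim1/2-deficient cells, Irgm2 3.39-fold and 4.66-fold, and Igtp 3.42-fold and 3.96-fold. The adjusted p of these 6 changes ran from 0.000377 to 0.00216.

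Among the IRG effectors, Iigp1 (Irga6), on chromosome 18, had 398 and 516 normalized counts in the unstimulated WT libraries, 733 and 600 in unstimulated Stim1/2-deficient libraries, 6029 and 5414 in stimulated WT libraries, and 8867 and 9265 in stimulated Stim1/2-deficient libraries. It showed the largest rise of the 10 genes in WT cells, 12.6-fold (adjusted p = 1.65e-05), and rose 13.7-fold in Stim1/2-deficient cells (adjusted p = 1.81e-05). Ifi47 (Irgd, chromosome 11, 49076587 to 49096987) had 1236 and 1198 in unstimulated WT libraries, 2312 and 1942 in unstimulated Stim1/2-deficient libraries, 5817 and 6105 in stimulated WT libraries, and 10665 and 13031 in stimulated Stim1/2-deficient libraries. The replicates of Ifi47 were close and its 4 groups were well apart, with rises of 4.89-fold in WT and 5.56-fold in Stim1/2-deficient cells (adjusted p = 0.000118 and 0.000134). Tgtp1 (Irgb6, chromosome 11, 48985329 to 48992246) had 28.1 and 26.6 in unstimulated WT libraries, 124 and 128 in unstimulated Stim1/2-deficient libraries, 295 and 233 in stimulated WT libraries, and 666 and 904 in stimulated Stim1/2-deficient libraries. It was the least abundant of the 10 genes in every library, and it rose 9.29-fold in WT and 6.12-fold in Stim1/2-deficient cells (adjusted p = 0.000233 and 0.000443).

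In all, 9 of the 10 genes lay above their unstimulated level in both stimulated WT libraries, against 35% of all tested genes, and Gbp3 lay below it in both, against 36%. In Stim1/2-deficient cells, 10 of 10 lay above, against 30.8%. By group mean, 7 genes shared 1 order, with unstimulated WT lowest, then unstimulated Stim1/2-deficient, stimulated WT and stimulated Stim1/2-deficient cells. The 3 exceptions, Gbp2, Gbp3 and Gbp7, had their lowest mean in unstimulated Stim1/2-deficient cells, though for Gbp2 this order of the unstimulated groups turned around after rescaling to equal upper quartiles or quantile normalization.

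**Figure D3:**
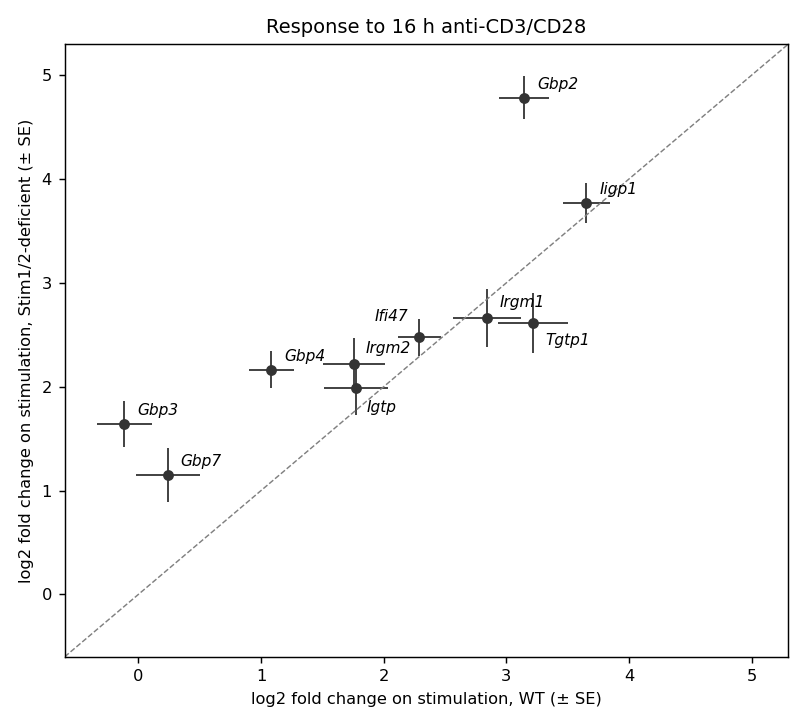
Log2 fold change with stimulation in WT cells (horizontal) and in Stim1/2-deficient cells (vertical) for each of the 10 genes, with bars for the standard error. The dashed line marks equal change, and Gbp2, Gbp3, Gbp4 and Gbp7 stand above it by 0.91 to 1.75 on the log2 scale.

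In unstimulated cells, Tgtp1 and Ifi47 were higher and Gbp3 was lower in Stim1/2-deficient than in WT cells. That is 2 of 10 genes called higher, against 1.38% of all tested genes, and 1 called lower, against 3.35%. Tgtp1 was 4.48-fold higher (log2 2.16, standard error 0.28, adjusted p = 0.00643) and Ifi47 1.74-fold higher (log2 0.80, standard error 0.18, adjusted p = 0.0349), whereas Gbp3 was 3.12-fold lower (log2 -1.64, standard error 0.22, adjusted p = 0.00770). Over all alternatives the adjusted p ran from 1.38e-06 to 0.129 for Tgtp1, from 0.00340 to 0.295 for Ifi47 and from 6.75e-08 to 0.149 for Gbp3, and each of the 3 calls was lost without WT replicate 3 and without WT replicate 4. That of Ifi47 was lost in 4 further alternatives, without either stimulated WT library (adjusted p = 0.0851 and 0.0857), in a fit to 4 libraries and with every gene above 0 tested.

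The IRG genes that did not pass the test had log2 fold changes of 0.97 for Irgm1 (adjusted p = 0.0785), 0.69 for Igtp (0.158), 0.55 for Iigp1 (0.136, from 0.36 to 0.73 with a library left out) and 0.35 for Irgm2 (0.459, and likewise from 0.022 to 0.68). Of the GBP genes, Gbp4 had 0.31 (adjusted p = 0.351), Gbp7 -0.40 (0.405, from -0.74 to -0.067 with a library left out) and Gbp2 -0.14 (0.734), the last turning to 0.019 after rescaling to equal upper quartiles and to 0.011 after quantile normalization. Of the 10 genes, 6 lay above both WT libraries, against 26.5% of all tested genes, 3 below, against 27.1%, and Irgm2 overlapped. The median log2 fold change was 0.45 against -0.01 over all genes.

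The macrophage and monocyte markers were higher in the same comparison, with 9 of the 14 tested called higher, against 1.38% of all tested genes. Most of their sum came from Stim1/2-deficient replicate 1. Of 11 tested B cell markers 2 were called higher (median log2 fold change 2.92), against the same 1.38%. Of 7 dendritic, 9 CD8 T and NK and 5 neutrophil markers none was called by limma, with medians of 3.31, 1.58 and 2.00. Of these, 5, 0 and 3 had an unadjusted limma p under 0.05, against 22% of all tested genes. Summed levels of these lists were 456 and 594 in WT against 1936 and 773 for dendritic cells, 544 and 520 against 1616 and 467 for CD8 T and NK cells, and 238 and 133 against 1149 and 512 for neutrophils, so replicate 1 was the higher each time. Of the 10 GTPase genes, Ifi47, Gbp2, Gbp4, Gbp7 and Iigp1 had their higher value in replicate 1 of that group, and Igtp, Irgm1, Irgm2, Gbp3 and Tgtp1 in replicate 2. Without replicate 1, the log2 fold change was 2.19 for Tgtp1, 0.67 for Ifi47 and -1.46 for Gbp3, all still called, and Irgm1 (1.45) and Igtp (1.12) were called as well. Without replicate 2, Tgtp1 (2.14), Ifi47 (0.93) and Gbp3 (-1.83) were called again, while Irgm1 was at 0.49 (adjusted p = 0.130), Igtp at 0.25 (0.411) and Irgm2 at 0.022 (0.966). The part of transcripts of other cell types in these values was not tested.

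After stimulation, 9 of the 10 genes were above both WT libraries in both Stim1/2-deficient libraries, against 24.3% of all tested genes. Gbp2 and Gbp4 passed the test, 2 of 10 against 0.162% of all tested genes. Gbp2 was 2.82-fold higher (log2 1.49, standard error 0.21, adjusted p = 0.0392) and Gbp4 2.62-fold higher (log2 1.39, standard error 0.18, adjusted p = 0.0356). Tgtp1 had a log2 fold change of 1.56 (adjusted p = 0.0537), Ifi47 0.98 (0.0537), Igtp 0.90 (0.156), Irgm2 0.81 (0.180), Irgm1 0.79 (0.231), Iigp1 0.67 (0.158) and Gbp7 0.51 (0.436, from 0.17 to 0.84 with a library left out). Gbp3, whose groups overlapped, had 0.11 (adjusted p = 0.879, 95% confidence interval -0.39 to 0.61). The median log2 fold change was 0.85 against 0.02 over all genes.

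The number of genes called in stimulated cells moved with the method, although the fold changes hardly did. The edgeR test called 0 of the 10, with log2 fold changes of 1.51 for Gbp2 and 1.40 for Gbp4. DESeq2 called 5, Gbp2, Gbp4, Tgtp1, Ifi47 and Igtp. Over all tested genes, edgeR called 1 higher (0.00649%) and DESeq2 called 251 higher (1.63%) and 299 lower (1.94%), against 0.162% higher by limma. These shares also belong beside the edgeR and DESeq2 counts for stimulated cells further on. By limma, 8 of the 10 had an unadjusted p under 0.05, against 13.7% of all tested genes. Stim1/2-deficient replicate 2 held the higher value of each of the 10 genes. Without it the log2 fold change was 1.21 for Gbp2 and 1.18 for Gbp4, neither called, and without replicate 1 it was 1.78 and 1.59, both called.

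**Figure D4:**
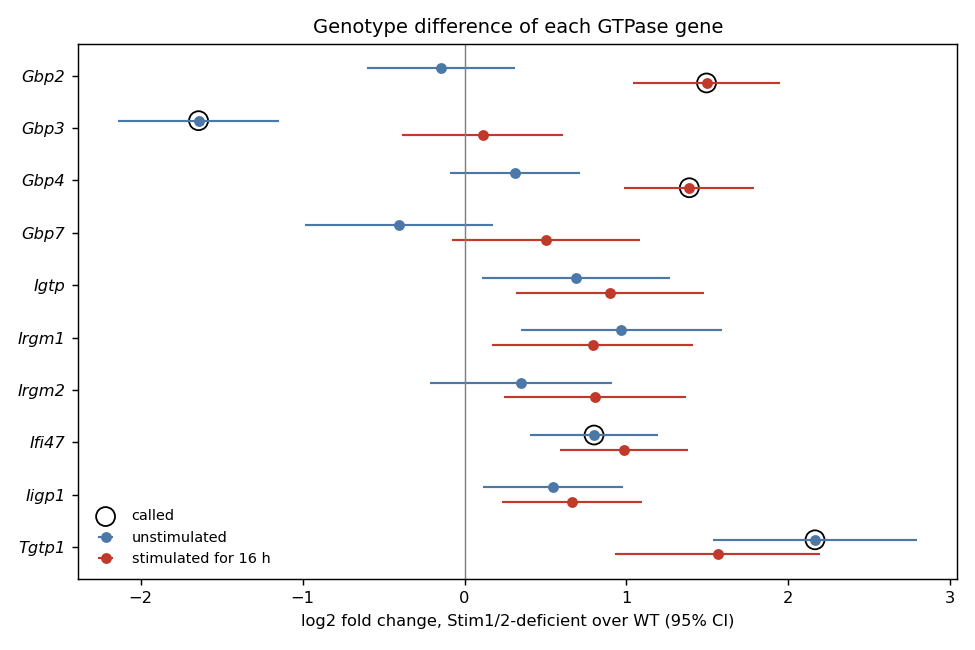
Log2 fold change of Stim1/2-deficient over WT cells for each gene, unstimulated (blue) and stimulated (red), with 95% confidence intervals and circles around called genes. After stimulation all 10 point estimates are above 0, from 0.11 to 1.56, whereas unstimulated Gbp3, Gbp7 and Gbp2 are below 0, Gbp2 only without rescaling to upper quartiles or quantiles.

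The difference between both genotype effects was tested as an interaction. None of the 10 genes passed, and 0 of all tested genes did (0%), by limma and for the 10 by edgeR too. DESeq2 called 2, Gbp2 and Gbp3, among 50 genes in all. At an unadjusted p under 0.05 limma had 4 of the 10 genes and 1257 of all genes (8.15%). These 4 were the GBP genes, Gbp3 with an interaction of 1.75 on the log2 scale (standard error 0.32, adjusted p = 0.328), Gbp2 with 1.64 (standard error 0.29, adjusted p = 0.328), Gbp4 with 1.08 (standard error 0.26, adjusted p = 0.556) and Gbp7 with 0.91 (standard error 0.37, adjusted p = 0.578). The 6 IRG genes had interactions from -0.60 for Tgtp1 to 0.46 for Irgm2 (adjusted p from 0.699 to 0.934), and those of Iigp1, Igtp and Irgm1 changed sign under some alternatives.

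The rest of the family was examined in the same fit, as 21 relatives of which 19 were tested. In unstimulated cells, 3 of them were called higher in Stim1/2-deficient cells, Gbp11 (log2 fold change 2.14, adjusted p = 0.0328), Gm4951 (1.70, adjusted p = 0.0476) and Gm12250 (1.00, adjusted p = 0.0415), and Gbp2b was called lower (-1.87, adjusted p = 0.0425). That is 3 of 19 called higher, against 1.38% of all tested genes, and 1 of 19 called lower, near the 3.35% of all tested genes. Gbp2b had 274 and 387 normalized counts in WT libraries against 147 and 53. After stimulation Gbp9 was called higher (1.32, adjusted p = 0.0392), with 1100 and 1195 against 2500 and 3279. It was 1 of 19, against 0.162% of all tested genes. With a pseudocount of 0.1, 2 relatives were called higher and 0 lower in unstimulated cells, and 0 after stimulation. The calls of Gbp2b and Gbp9 were thus lost. With stimulation, 9 relatives rose and 3 fell in WT cells, against 10.2% and 13.1% of all tested genes, and 8 rose and 3 fell in Stim1/2-deficient cells, against 13% and 12%, so that the falls were near the share of all genes. These shares are also those to set beside the counts with stimulation that follow. After rescaling to equal totals, 27.6% of all genes rose and 6.32% fell in WT cells and 24.6% and 6.98% in Stim1/2-deficient cells, with 9 relatives up and 1 down, and 11 up and 1 down.

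Sorted by chromosome, an arrangement made after the values were seen, the family split in unstimulated cells. All 5 tested GBP genes of the chromosome 3 cluster (Gbp2, Gbp2b, Gbp3, Gbp5 and Gbp7) lay below both WT libraries in both Stim1/2-deficient libraries, against 27.1% of all tested genes, with log2 fold changes from -1.87 to -0.14, Gbp2 alone turning above 0 with rescaling to upper quartiles or quantiles. The 6 GBP genes of the chromosome 5 cluster had positive log2 fold changes from 0.19 to 2.14, and the 11 IRG genes of chromosome 11 from 0.35 to 2.16, under each scaling tried and by edgeR and DESeq2. After stimulation, all 11 genes of chromosome 11 and all 6 of chromosome 5 lay above both WT libraries, and 3 of the 5 of chromosome 3 did, against 24.3%. The interaction was positive for 5 of 5 genes of chromosome 3, from 0.91 to 1.75, and for 6 of 6 of chromosome 5, from 0.10 to 1.15. On chromosome 5, Gbp11 turned below 0 with equal totals or equal upper quartiles. Over the 11 of chromosome 11 the median was -0.02, from -0.60 to 1.73. The highest was that of Gm5431 (standard error 1.51), which had only 0 to 38.8 normalized counts over the 8 libraries. The 3 genes of chromosome 18 ran from -1.58 to 0.12 and the 3 of chromosome 7 from 0.53 to 0.76. F830016B08Rik of chromosome 18 had a genotype difference of -1.12 after stimulation, below both WT libraries. Neighbours of the chromosome 3 cluster, the 3 nearest tested genes on each side, had log2 fold changes from -0.79 to 0.24 in unstimulated cells (limma adjusted p from 0.119 to 0.999). Of these, Rap1gds1 and Tspan5 lay 3421706 and 3592501 bases from the cluster, and the others 63011 to 152894 bases. The lowest value was that of Gtf2b, 127239 bases away.

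**Figure D5:**
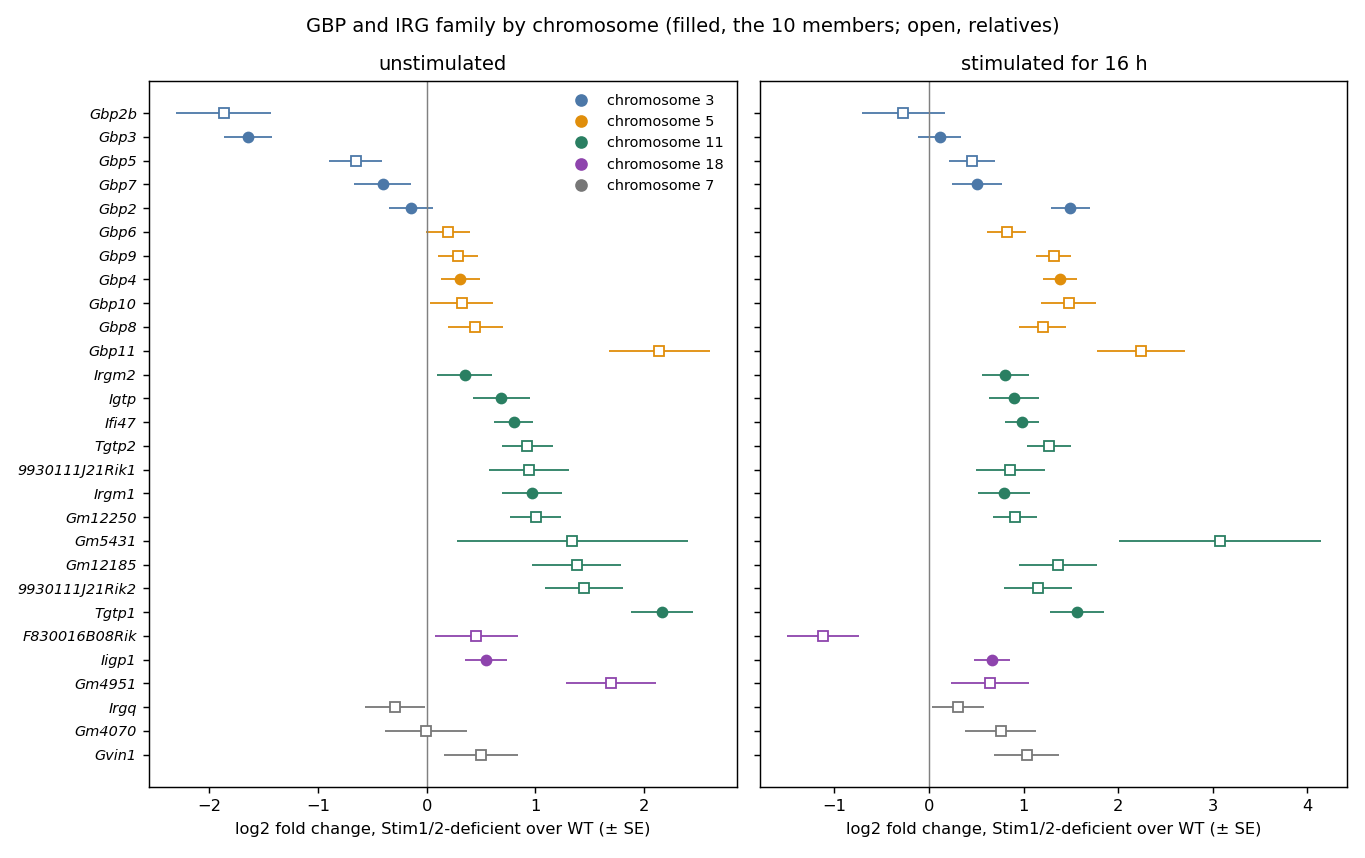
Log2 fold change of Stim1/2-deficient over WT cells, with standard errors, for 28 genes of the family with a known chromosome, ordered by chromosome, with filled symbols for the 10 genes and open symbols for relatives. In unstimulated cells the 5 genes of chromosome 3 are left of 0, Gbp2 only without rescaling to upper quartiles or quantiles, and the 17 genes of chromosomes 5 and 11 are right of it.

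Near-identical copies limit what can be said of single genes. Of the 50-base words in the transcripts of Tgtp1, 83.4% also occur in Tgtp2, so reads of the pair can be split between them or lost. Tgtp2 had 111 and 131 normalized counts in the unstimulated WT libraries against 220 and 242, and after stimulation 387 and 372 against 837 and 1000, with log2 fold changes of 0.93 (adjusted p = 0.0502) and 1.27 (adjusted p = 0.0537). For the other 9 genes the share of words found in another gene was 0.0869% for Irgm1 and 2.03% to 12.2% for the rest, with Gbp4 highest. In Igtp, 9.64% of the words were shared with Irgm2. Ifi47 shared 3.43% with Olfr56. Among the relatives, 9930111J21Rik1 shared 80.4% of its words with 9930111J21Rik2, Gbp6 75.3% with Gbp10 and Gvin1 98.3% with Gm4070. The counts of genes by chromosome therefore include near-copies that are not independent.

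Per kilobase of annotated exon, the order of levels differed between groups. In unstimulated WT cells, the mean level was highest for Igtp at 833 normalized counts per kilobase, followed by Gbp7 at 768, Gbp3 at 687, Gbp4 at 620 and Ifi47 at 525, and lowest for Tgtp1 at 8.53. Igtp was also highest in unstimulated Stim1/2-deficient cells, at 1402, and in stimulated WT cells, at 2851, there before Ifi47 at 2573 and Gbp2 at 2303. In stimulated Stim1/2-deficient cells it was highest for Gbp2 at 6607 per kilobase, followed by Igtp at 5343, Ifi47 at 5114, Gbp4 at 3477 and Iigp1 at 2905, while Gbp3 was at 698 and Tgtp1 at 245. Gbp2 had been at 260 per kilobase in unstimulated WT cells, whereas Gbp3 kept a level between 635 and 698 in the 3 groups other than unstimulated Stim1/2-deficient cells, where it had 222.

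Over the 8 libraries, each gene's log2 values were compared with the mean of the other 9, as a description that the stimulation groups dominate. Pearson's r was 0.404 for Gbp3 and 0.759 for Gbp7, 0.913 for Tgtp1, 0.958 for Gbp4 and 0.969 to 0.987 for the other 6. Among 9137 further genes whose mean was 100 normalized counts or more, the 10 most like the mean of all 10 GTPases were Mov10 (r = 0.992), Tap1 (0.991), Gm12250 (0.990), 6430511E19Rik (0.989), Gbp6 (0.989), Diexf (0.988), Gm42047 (0.988), Phc2 (0.984), 4632404H12Rik (0.984) and Gm5970 (0.982). Of these, Gm12250 and Gbp6 are relatives from the same family, and Tap1 is the peptide transporter of antigen presentation, which interferon gamma induces. Tap1 had 1383 and 1180 normalized counts in the unstimulated WT libraries, 1557 and 1655 in unstimulated Stim1/2-deficient libraries, 2850 and 2900 in stimulated WT libraries, and 3728 and 5073 in stimulated Stim1/2-deficient libraries. Its 4 groups were apart, in the order that 7 of the GTPases share.

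The pathway above the GTPases was examined by role. Of 10 interferon ligand genes, Ifnb1, Ifna1, Ifne, Ifnz, Ifnl2 and Ifnl3 were listed at 0 in all 8 libraries, and Ifna2 and Ifna4 had 1 read in 1 library each. Ifnk, of type I interferon, had 13.6 to 48.1 normalized counts in the unstimulated libraries and 3.12 to 7.15 in the stimulated ones. Its log2 fold change with stimulation was -1.84 in WT and -1.93 in Stim1/2-deficient cells, and it passed no test. Ifng, the gene of interferon gamma, had 78.8 and 126 normalized counts in the unstimulated WT libraries, 142 and 25.4 in unstimulated Stim1/2-deficient libraries, 899 and 322 in stimulated WT libraries, and 1201 and 198 in stimulated Stim1/2-deficient libraries. The genotypes overlapped in both states. In both stimulated groups, replicate 1 held more Ifng. Summed levels of macrophage and monocyte, B cell, dendritic cell, CD8 T and NK cell and neutrophil markers were also higher there, and those of erythroid markers lower. The CD8 T and NK cell sums were 1467 and 637 in stimulated WT replicates 1 and 2, and 2228 and 517 in stimulated Stim1/2-deficient ones. Those of B cells were 1127 and 235, and 1708 and 368. In stimulated Stim1/2-deficient cells, replicate 2 had less Ifng and more of each of the 10 GTPases. That compares only 2 libraries, and a link of Ifng to the GTPases or to other cell types was not tested. Ifng rose with stimulation in Stim1/2-deficient cells (log2 2.99, adjusted p = 0.0350) and had a log2 fold change of 2.42 in WT cells (adjusted p = 0.0767).

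Of the 7 receptor and kinase genes, none passed the test between genotypes, with limma or edgeR, and the 2 in unstimulated and 1 in stimulated cells with an unadjusted p under 0.05 were about the shares of all tested genes, 22% and 13.7%. DESeq2 called 0 and 1. In unstimulated cells it called 3.38% of all tested genes higher and 5.3% lower, shares that also belong beside its unstimulated counts below. With stimulation, 4 fell in WT cells, Jak2 (-2.18 on the log2 scale), Ifnar1 (-1.97), Jak1 (-1.37) and Ifnar2 (-0.81), and Jak1 alone fell in Stim1/2-deficient cells (-1.31). Ifngr1 and Ifngr2, the chains of the interferon gamma receptor, passed no test, with 3283 to 8166 and 344 to 1870 normalized counts over the 8 libraries.

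Of 11 transcription factor genes, 10 were tested and none passed between genotypes by limma or edgeR, though 2 in unstimulated and 6 in stimulated cells had an unadjusted p under 0.05, against 22% and 13.7% of all genes, and DESeq2 called 0 and 2. After stimulation, 8 of the 10 lay above both WT libraries in Stim1/2-deficient cells, against 24.3% of all tested genes. Irf7 had 158 and 151 normalized counts in stimulated WT libraries against 347 and 476 (log2 1.39, adjusted p = 0.0537). With stimulation, Stat2 (log2 0.96) rose in Stim1/2-deficient cells, Irf8 rose in both WT (3.38) and Stim1/2-deficient cells (2.78), and Irf7 fell in WT cells (-1.09). Irf1 had 2713 and 2431 in unstimulated WT libraries, 1786 and 3841 in unstimulated Stim1/2-deficient libraries, 1949 and 2262 in stimulated WT libraries, and 3603 and 4621 in stimulated Stim1/2-deficient libraries, and passed no test.

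Of 13 inhibitors of the pathway, none passed between genotypes by limma or edgeR, with 3 and 1 at an unadjusted p under 0.05 in unstimulated and stimulated cells, near or below the shares of all genes (22% and 13.7%). DESeq2 called 2 in unstimulated cells, against 3.38% of all genes higher and 5.3% lower, and 1 in stimulated cells. Stimulation gave the same 4 rises and 2 falls in both genotypes, and 7 rises and 1 fall in each with equal totals. Socs1, which blocks JAK kinases, rose by 3.07 in WT and 3.23 in Stim1/2-deficient cells on the log2 scale, Socs2 by 2.37 and 3.27, Cish by 0.83 and 1.63, and Usp18 by 1.09 and 1.12, while Socs3 fell by 1.85 and 1.90 and Pias1 by 1.04 and 0.74.

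Of 22 other genes that interferon gamma is known to induce, 19 were tested, and in unstimulated cells the chemokine genes Cxcl10 and Cxcl11 were called lower in Stim1/2-deficient cells. That is 2 of 19, against 3.35% of all tested genes. Log2 fold changes were negative for 16 of the 19, with a median of -0.31 against -0.01 over all genes. Below both WT libraries lay 9, against 27.1%, and above both lay 2, against 26.5%. An unadjusted limma p under 0.05 was found for 8, against 22%. Cxcl10 had 1581 and 1557 normalized counts in WT libraries against 186 and 228 (log2 -2.92, adjusted p = 0.00409), whereas Tgtp1 and Ifi47 were higher in the same libraries. Cxcl11 had 39.9 and 31.0 against 1.05 and 0, at or under the floor of 3 reads. After stimulation none passed by limma or edgeR, 6 had an unadjusted p under 0.05 (13.7% of all genes did), DESeq2 called 3, and 13 lay above both WT libraries, against 24.3%. With stimulation 5 rose and 3 fell in WT cells (10 and 2 with equal totals), and 13 rose and none fell in Stim1/2-deficient cells (14 and 0), Psme2 (2.82) and Wars (2.43) with the largest changes.

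Of 29 genes known as targets of type I interferon, 2 were called higher in unstimulated Stim1/2-deficient cells, Oas2 (2.36) and Ifit1bl1 (2.30), against 1.38% of all tested genes. After stimulation 5 were called higher by limma, against 0.162%, 0 by edgeR, against 0.00649%, and 16 by DESeq2, against 1.63%. Of the 29, 22 lay above both WT libraries, against 24.3%, and 20 had an unadjusted limma p under 0.05, against 13.7%. Their median log2 fold change was 1.00, against 0.85 for the 10 GTPases and 0.02 over all genes. Ifit3 had 12.5 and 12.2 normalized counts in stimulated WT libraries against 139 and 209 (log2 3.69, adjusted p = 0.0313), and Ifit1 106 and 109 against 536 and 845 (2.63, adjusted p = 0.0313). With stimulation, 13 of the 29 fell and 2 rose in WT cells, and 2 fell and 6 rose in Stim1/2-deficient cells, a balance that depended on the scaling, since with equal totals 4 fell and 3 rose, and 1 fell and 13 rose. Of 17 tested partners of the GTPases in vacuole targeting, such as autophagy and ubiquitin-binding genes, Gabarapl1 alone was called between genotypes, lower in unstimulated Stim1/2-deficient cells (-1.95, adjusted p = 0.0287). That is 1 of 17, against 3.35% of all tested genes. With stimulation 1 of them rose and 6 fell in WT cells, which turned to 4 and 2 with equal totals, and 3 rose and 3 fell in Stim1/2-deficient cells, close to the shares of all genes (4 and 1 with equal totals).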

How the data were processed

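The table covers 8 RNA-seq libraries of sorted Treg cells in 4 groups, taken from the labels. Its deposited signal values were made by the authors from gene counts, scaled by a size factor for each library and rounded. The methods name single reads aligned to NCBIM37 with Bowtie, unique reads, removal of PCR duplicates with Picard, HTSeq and DESeq2. The submitters' processing notes name STAR 2.7, mm10, bcl2fastq 1.8.4 and DESeq2 instead, and the labels a stranded library kit where the methods name an unstranded one. Which of these made the values could not be settled, and the strand setting of the counting is not given in the sources used here, so reads of overlapping genes may be shared. Multiplied back by its size factor, 100% of the values gave whole reads (within 0.05 reads beside rounding). Positions and promoter windows came from RefSeq GRCm38.p6 by symbol (35095 of 52459 symbols matched), exon lengths and 50-base words from GENCODE vM1 on NCBIM37 (28801 matched).

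Log2(value + 1) of the 15419 genes with a mean of at least 10 was fitted with limma 3.58.1 (eBayes with a trend) in R 4.3.3, in 1 model of the 4 groups, so that fold changes are on that scale. Tests were 2-sided, with Benjamini-Hochberg adjustment per comparison over all tested genes, and calls needed more than 1.5-fold at an adjusted p below 0.05. Comparisons were genotype in each state, their interaction, and stimulation in each genotype. The alternatives were pseudocounts, filters on low values, 3 rescalings, DESeq2 1.42.0 and the quasi-likelihood test of edgeR 4.0.16 on recovered reads, fits to the 4 libraries compared, other fold limits, a replicate block, and each library left out. The fitting steps were tested on simulated data. All 10 genes, their relatives and the ligands, receptors, factors and inhibitors of the pathway could be named whatever their values, with examples given of each, and of other lists at most the 4 largest called changes per comparison, and for likeness the 10 highest correlations. The values of 1 transcription factor gene are not reported here. The 10 genes and all lists were chosen with earlier results of these data known.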

Additional observations from a re-analysis of the deposited data

Results flagged for a closer look

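Of the 10 GTPase genes, 2 lay below both WT libraries in unstimulated Stim1/2-deficient cells and above both WT libraries in stimulated ones, as did 2.77% of all tested genes. For Gbp2 the interaction of genotype and stimulation was 1.64 on the log2 scale (limma adjusted p = 0.328), although its unstimulated difference of -0.14 changed sign after rescaling to equal upper quartiles (0.019) or quantile normalization (0.011). For Gbp7 the interaction was 0.91 (limma adjusted p = 0.578). Neither passed the test of the difference itself by limma or edgeR, and DESeq2 called Gbp2 but not Gbp7.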

How the results depend on the processing

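With 2 libraries per group, counts of called genes moved more than fold changes. Rescaling to equal upper quartiles moved the median of all genes by up to 0.15 on the log2 scale, in unstimulated genotype differences, and rescaling to equal totals by up to 0.52, with stimulation in WT cells. In unstimulated cells, 5 genes were called after quantile normalization in place of 3, and 0 to 5 with a library left out (0 without WT replicate 3 or 4, 5 without Stim1/2-deficient replicate 1). Their median log2 fold change was 0.61 with equal upper quartiles and 0.31 to 0.64 with a library left out. In stimulated cells, in place of 2 genes, 1 was called with a pseudocount of 0.1, 4 with a pseudocount of 5, a mean of at least 100 or quantile normalization, 5 by DESeq2, and 0 with every gene above 0, by edgeR or in a fit to 4 libraries. With a library left out it was 0 to 6, with 0 without stimulated WT replicate 1 or 2, Stim1/2-deficient replicate 2 or either unstimulated WT library, and 4 to 6 without stimulated Stim1/2-deficient replicate 1 or either unstimulated Stim1/2-deficient library. The median ran from 0.71 to 1.04. For the interaction, DESeq2 called 2 genes, and 0 to 2 were called with a library left out (2 without unstimulated Stim1/2-deficient replicate 2). The median was 0.18 with equal upper quartiles and 0.17 to 0.61 with a library left out. For stimulation in WT cells the median became 2.55 with equal totals and 2.46 with quantile normalization (2.01 to 2.11 and 8 calls throughout with a library left out), and in Stim1/2-deficient cells 2.74 and 2.58 (2.17 to 2.52, with 9 to 10 calls). The causes were not tested.

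Of the fold changes of single genes, 12 of 910 alternatives changed sign, none of a value called by the main settings. Gbp2 in unstimulated cells became 0.019 with equal upper quartiles and 0.011 with quantile normalization. Gbp3 with stimulation in WT cells became 0.40 with equal totals and 0.23 with quantile normalization, and in stimulated cells its genotype difference ran from -0.16, without Stim1/2-deficient replicate 2, to 0.39. The interaction of Iigp1 became -0.012 with equal totals, -0.036 with equal upper quartiles, -0.054 with quantile normalization, and -0.068 to 0.30 with a library left out, that of Igtp -0.22 to 0.65 and that of Irgm1 -0.66 to 0.30. Replicate numbers were shared by 3 of the groups. Deviations of same-numbered libraries correlated at 0.167 between stimulated genotypes and 0.257 between states of Stim1/2-deficient cells, over 15419 genes and 2 pairs each, which does not establish a pairing. With a replicate block 2 genes were called between genotypes in stimulated cells and 10 with stimulation in Stim1/2-deficient cells, the same counts as without it.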
